A study of Mus musculus with 47 samples.

Results

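Mpo, Elane, Prtn3, Ctsg and Ms4a3 are genes that granulocyte precursors transcribe while they build their primary (azurophil) granules, and they were taken by gene symbol from the table of read counts, 5 of the 20456 genes in it. The table holds 47 libraries of bulk RNA from the liver, lung and brain of mouse embryos at E18.5, with C57BL/6 as the labelled strain. Embryos of the S226A groups were homozygous for a Daxx allele made to abolish binding of the histone variant H3.3, and embryos of the Y130A groups for an allele made to abolish binding of Atrx. The study showed both losses in cells that overexpressed Daxx. It leaves a partial loss possible for Y130A, where some replicates kept a faint band of ATRX. Both alleles were knock-ins made in C57BL/6N zygotes whose founders were then crossed to C57BL/6J, so that both substrains contribute to the background and every cell of an embryo carries the allele, and the RNA is of whole organs rather than of sorted cells. Wild-type littermates of each mutant were the controls. Each of the 12 groups of tissue and genotype had 4 libraries, apart from wild-type lung in the Y130A litters, which had 3. The question asked of these genes was whether their RNA differed between each mutant and its own littermates, in liver first and then in lung and brain.

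Neutrophils are made in stages, and the proteins of the primary granules are made first, at the promyelocyte stage, before those of the secondary and tertiary granules. In the fetus the liver is the main site of this work until the bone marrow takes over. Mpo encodes myeloperoxidase, which makes hypochlorous acid from hydrogen peroxide, and Elane, Prtn3 and Ctsg encode the serine proteases neutrophil elastase, proteinase 3 and cathepsin G. Ms4a3 encodes a membrane protein of granulocyte and monocyte precursors rather than a granule content. The factors C/EBP, PU.1, RUNX1 and MYB are known activators of such genes, and C/EBP-epsilon of the later granule genes.

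On GRCm38, in the GENCODE M21 annotation, Mpo (ENSMUSG00000009350.13) lies at chr11:87793581-87804413 on the plus strand, Ctsg (ENSMUSG00000040314.2) at chr14:56099881-56102574 on the minus strand and Ms4a3 (ENSMUSG00000024681.11) at chr19:11629496-11640851 on the minus strand. Prtn3 (ENSMUSG00000057729.12, chr10:79874476-79883174) and Elane (ENSMUSG00000020125.7, chr10:79886247-79888215) are neighbours on the plus strand, 3072 bases apart. Their coding sequences, of 762 and 795 bases, were identical at 61.4% of aligned positions and their longest shared run was 17 bases. The first 159 bases of the Prtn3 gene model are also exon of Plppr3, and 512 exonic bases of Mpo are also exon of the antisense gene Gm11505, both on the other strand. Since the sources used here do not state whether counting used strand, reads in these bases cannot be assigned to one of the genes.

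Because the 5 genes moved together in the liver, the 150 bases before each RefSeq start (GRCm38.p6) were searched on both strands for GAGGAA (the PU.1 letters), TTGCNNAA (C/EBP), TGNGGT (RUNX) and AACNG (MYB). The stretches printed lie before the RefSeq start and outside the exons of GENCODE M21, 5′ to 3′ on the gene's strand, with matches in capitals, and that of Prtn3 lies in an intron of a longer Prtn3 transcript that starts further upstream: chr10:79886203-79886246 (plus) for Elane, chr10:79879548-79879591 (plus) for Prtn3, chr14:56102575-56102724 (minus) for Ctsg and chr19:11640852-11641001 (minus) for Ms4a3.
Elane: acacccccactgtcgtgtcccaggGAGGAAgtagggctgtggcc
Prtn3: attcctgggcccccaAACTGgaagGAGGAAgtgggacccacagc
Ctsg: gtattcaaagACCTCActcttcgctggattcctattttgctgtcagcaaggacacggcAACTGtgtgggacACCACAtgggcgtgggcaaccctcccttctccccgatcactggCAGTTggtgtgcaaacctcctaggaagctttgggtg
Ms4a3: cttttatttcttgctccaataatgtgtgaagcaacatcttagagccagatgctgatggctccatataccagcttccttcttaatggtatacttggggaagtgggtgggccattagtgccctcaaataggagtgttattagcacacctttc
The neighbours Elane and Prtn3 both held GAGGAA followed by gt, at positions -85 to -80 and -95 to -90 from the start, and both held letters of MYB, of which the 1 at -104 to -100 in Prtn3 is printed and the others lie nearer to the start. The MYB letters of Elane lie after its GENCODE start, which is 65 bases before the RefSeq start. Ctsg held letters of RUNX and MYB, and the windows of Ms4a3 and Mpo held none of the 4 motifs. For Mpo the RefSeq start is 203 bases after the GENCODE start, so its whole window lies inside the GENCODE gene. The bases before the GENCODE start of Mpo were not searched. No member held TTGCNNAA. Among 32817 such windows, GAGGAA was found in 14.5%, TTGCNNAA in 5.47%, TGNGGT in 26.0% and AACNG in 55.1%, and matches of different motifs did not overlap in the members. A match is a description of letters and not a bound site.

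The S226A litters gave 15722147 to 26190403 counted reads in each library and the Y130A litters 36351738 to 54885020. Daxx had log2 fold changes of -0.12 to 0.04 in the 6 comparisons of mutant with wild type (edgeR adjusted p of at least 0.857). The alleles are point mutations and the counts are gene totals, so this does not check the genotypes. At the level of protein, the study reported more Daxx in Y130A and less in S226A, most clearly in embryonic fibroblasts. A wild-type liver of the S226A litters (replicate 2) and a Y130A liver (replicate 1) held transcripts of squamous epithelium at 860 and 527 CPM (read counts scaled to the library's total, as counts-per-million), against at most 7.07 in the other 14 livers, and results in liver are also given without both. All other levels are CPM of the TMM-scaled library size unless said otherwise. A gene was called where the quasi-likelihood test of edgeR gave a Benjamini-Hochberg adjusted p below 0.01, a log2 fold change beyond 1 and a standard error (SE) below 1.

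In the liver of S226A embryos, all 5 genes rose against their wild-type littermates, by log2 fold changes of 1.37 (Prtn3) to 1.70 (Ctsg), which is 2.59-fold to 3.25-fold. Of all genes tested, 2.1% were called in either direction and 1.26% were called higher. Mpo stood at 347, 327, 347 and 376 CPM in the 4 wild-type livers and at 1045, 802, 1061 and 1102 CPM in the 4 S226A livers. The groups lay far apart, and the lowest S226A liver was above the highest wild-type liver by more than the whole range of the wild-type group. The log2 fold change of Mpo was 1.52 (SE 0.26, edgeR adjusted p = 3.87e-05). More cells of a type and more RNA per cell cannot be told apart in such bulk RNA.

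Elane was at 45.4, 48.3, 60.9 and 55.9 CPM in wild-type livers and at 159.9, 121.1, 155.2 and 153.2 CPM in S226A livers, with a log2 fold change of 1.49 (SE 0.32, edgeR adjusted p = 0.000884). Prtn3 was at 74.3, 61.1, 75.6 and 73.7 CPM in wild type and at 192.7, 155.8, 187.8 and 200.9 CPM in S226A (log2 fold change 1.37, SE 0.17, edgeR adjusted p = 1.65e-07). For both proteases, as for Mpo, replicate 2 was the lowest of the S226A livers and still stood above every wild-type liver. Ctsg was at 36.1, 36.5, 31.2 and 45.6 CPM in wild type and at 128.5, 90.3, 132.8 and 135.1 CPM in S226A (log2 fold change 1.70, SE 0.28, edgeR adjusted p = 1.97e-05). Ms4a3, the membrane protein, was at 15.97, 20.6, 14.3 and 17.1 CPM in wild type and at 55.7, 43.0, 41.7 and 51.3 CPM in S226A (log2 fold change 1.50, SE 0.27, edgeR adjusted p = 0.000151). For each of the 5 genes all S226A livers lay above all wild-type livers, which was so for 6.7% of all genes tested.

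**Figure D1:**
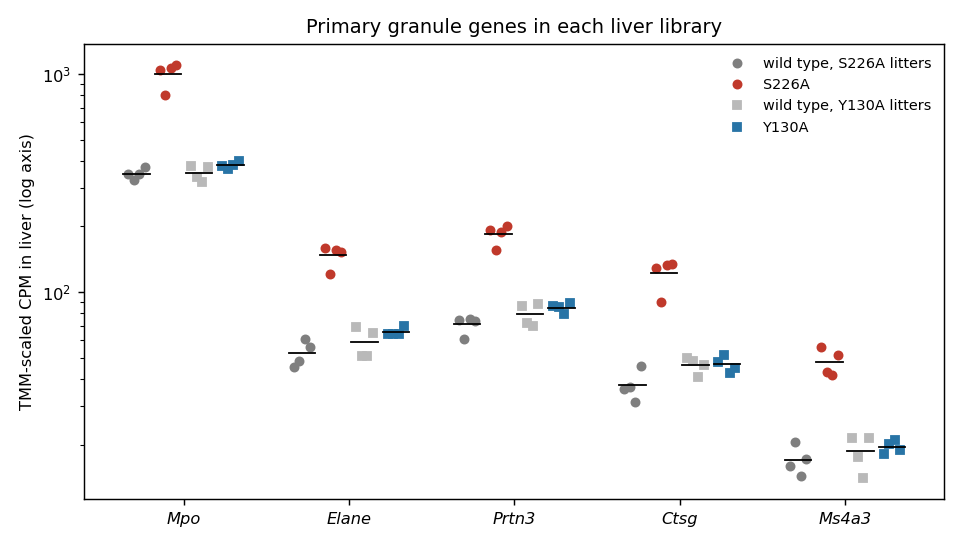
Levels of the 5 genes in each of the 16 liver libraries, in TMM-scaled CPM on a log axis; points are libraries, colours are the 4 groups and black lines are group means. The 4 S226A libraries of each gene sit above all other livers, from 801.5 to 1102 CPM for Mpo, while the other 3 groups lie close together.

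Within litters, each S226A liver was compared with the liver of its own wild-type littermate. The ratio ran from 2.46 to 3.06 for Mpo, from 2.51 to 3.52 for Elane, from 2.48 to 2.73 for Prtn3, from 2.47 to 4.26 for Ctsg and from 2.09 to 3.49 for Ms4a3. All 5 genes were thus higher in the mutant in 4 of 4 litters. Prtn3 had the narrowest range and Ctsg the widest. Without both livers that held squamous transcripts, the 5 genes remained called and the log2 fold changes were 1.49, 1.45, 1.31, 1.69 and 1.60 in the order above. DESeq2 fitted to all 47 libraries gave nearly the same fold changes but called only Prtn3 and Ms4a3, with SEs of 0.65 for Mpo, 1.11 for Elane and 0.63 for Ctsg. Fitted to the 8 libraries compared, which was tried after seeing the data, DESeq2 called all 5 with SEs of 0.10 to 0.15.

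**Figure D2:**
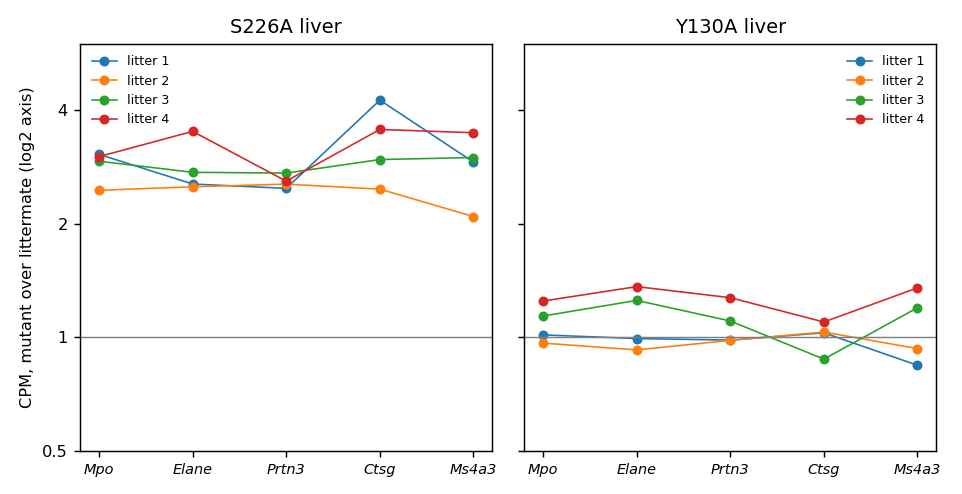
Level in the mutant liver divided by that in the wild-type littermate, on a log2 axis, for each of the 4 litters (lines) of S226A and of Y130A. All S226A ratios lie between 2.09 and 4.26, and the Y130A ratios lie on both sides of 1, from 0.843 to 1.36.

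The 5 genes were set side by side by level per kilobase, as CPM divided by the bases that lie in an exon of any annotated transcript. In wild-type livers of the S226A litters, Mpo was highest at 101.9 ± 5.95 CPM per kilobase (SD, n = 4), then Elane at 53.5 ± 7.16, Prtn3 at 41.1 ± 3.89, Ctsg at 36.2 ± 5.81 and Ms4a3 at 9.02 ± 1.41. Prtn3 and Ctsg overlapped among libraries and the other neighbours in this order did not. In S226A livers Mpo was at 292.8 ± 39.8, Elane at 149.7 ± 18.0, Ctsg at 117.8 ± 20.4, Prtn3 at 106.4 ± 11.4 and Ms4a3 at 25.4 ± 3.56 CPM per kilobase, and here Elane and Ctsg, and Ctsg and Prtn3, overlapped. The place of Prtn3 depends on the length used: for the transcript with the longest coding sequence (1025 bases for Prtn3, against 1732 over all transcripts) it was at 69.4 ± 6.58 in wild-type and 179.8 ± 19.3 CPM per kilobase in S226A livers (SD, n = 4), above Elane in the mean and overlapping with it in both groups. Mpo stayed highest and Ms4a3 lowest with either length. By summed CPM, in which longer genes weigh more, the shares of the 5 genes hardly differed between the genotypes, as Mpo made up 66.2% ± 0.52 of their summed CPM in wild-type and 66.6% ± 0.61 in S226A livers (SD, n = 4). Ctsg made up 7.08% ± 0.90 in wild-type and 8.05% ± 0.42 in S226A livers (SD, n = 4).

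In the liver of Y130A embryos none of the 5 genes was called, against 0.077% of all genes tested, and none had an unadjusted p below 0.05 with edgeR or a call with DESeq2. Mpo was at 380, 337, 320 and 373 CPM in the wild-type livers and at 378, 367, 384 and 399 CPM in the Y130A livers, and the groups overlapped. The log2 fold change was 0.12 for Mpo (95% interval -0.39 to 0.63), 0.15 for Elane (-0.47 to 0.77), 0.10 for Prtn3 (-0.24 to 0.45), 0.01 for Ctsg (-0.54 to 0.55) and 0.07 for Ms4a3 (-0.47 to 0.61). The upper limits correspond to 1.54-fold, 1.71-fold, 1.36-fold, 1.46-fold and 1.53-fold in the same order. Within litters the Mpo ratio ranged from 0.965 to 1.25 and was above 1 in 3 of 4.

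**Figure D3:**
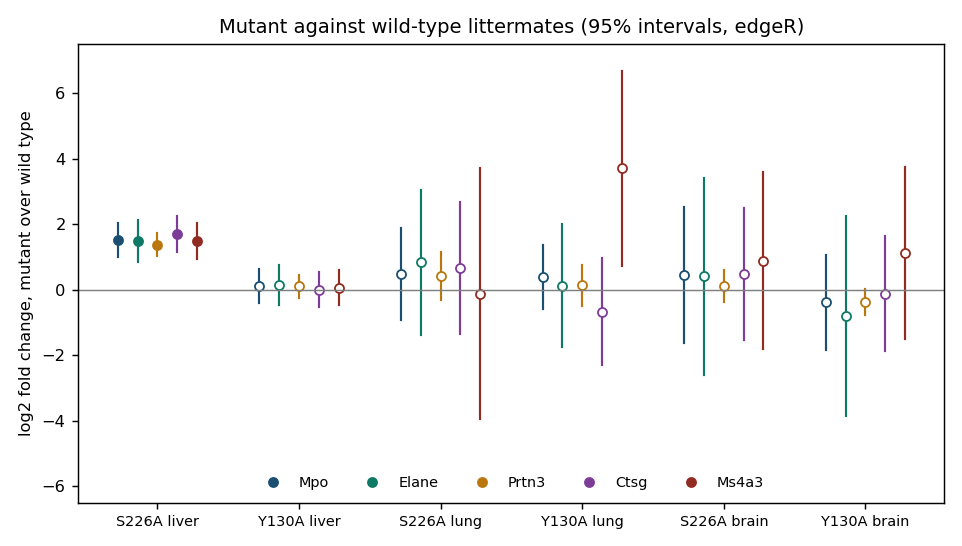
Log2 fold change of each gene in the 6 comparisons of a mutant with its wild-type littermates, with 95% intervals from edgeR; filled points were called. Only the 5 points of S226A liver, at 1.37 to 1.70, are filled, and in lung and brain the intervals are wider than those of the same gene in liver.

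The difference between both mutant effects was tested directly in the liver. The S226A effect was larger than the Y130A effect for all 5 genes, by 1.27 (Prtn3) to 1.70 (Ctsg) on the log2 scale. Prtn3 (SE 0.24, adjusted p = 0.000625, edgeR) and Ctsg (SE 0.38, adjusted p = 0.00423, edgeR) were called, against 0.651% of all genes tested called higher. Mpo, Elane and Ms4a3 had differences of 1.41, 1.34 and 1.43 with edgeR adjusted p of 0.0118, 0.0613 and 0.0170. In a fit of only the libraries compared, here the 16 livers, all 5 were called and the SE of Mpo was 0.13 in place of 0.36, and with litter as a block 4 were called, all but Ms4a3. The count was 1 without wild-type liver replicate 3 of the S226A litters, without S226A liver replicate 3 and without S226A liver replicate 4. Depth differed between both sets of litters, so the alleles are compared only through these differences within each set.

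Of the other genes of primary granules, 2 of 11 tested were called higher in S226A liver and none lower. Their median log2 fold change was 0.37, against -0.01 over all genes tested. Lyz2, which encodes lysozyme, rose from 456 to 1267 CPM (log2 fold change 1.48, SE 0.20, edgeR adjusted p = 1.04e-06), and Prss57, a serine protease of the same granules named because it was called, from 6.77 to 19.3 CPM. Srgn, the proteoglycan that holds granule contents, had a log2 fold change of 0.76 (SE 0.16), under the limit of 1. Ctsc, the peptidase that activates the granule proteases, was at 85.2 CPM in wild-type and 74.7 CPM in S226A livers (log2 fold change -0.19, SE 0.10), and was not called. Cd68, a lysosomal membrane protein that macrophages make in quantity, had -0.62 (edgeR adjusted p = 0.00384) and was not called. The lysosomal hydrolases of the list, which many cells make, had log2 fold changes between 0.06 and 0.51.

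Of 10 inhibitors of the granule proteases, 1 was called, Serpinb1a, the intracellular inhibitor of neutrophil elastase, which rose from 48.5 to 124.8 CPM (log2 fold change 1.36, SE 0.19, edgeR adjusted p = 7.26e-07). Cst7, which encodes cystatin F, an inhibitor of the peptidase that activates the proteases, stood at 4.99 CPM in wild-type and 14.3 CPM in S226A livers, with a log2 fold change of 1.52 that was not called by edgeR (SE 0.46, adjusted p = 0.0259) and was called by DESeq2. The antitrypsins Serpina1b and Serpina1e, products of hepatocytes, had log2 fold changes of -0.19 and -0.61, and neither was called. Of 8 transcription factors of these precursors, Cebpe rose from 10.8 to 33.2 CPM (log2 fold change 1.62, SE 0.29, edgeR adjusted p = 0.000129) and Gfi1, named because it was called, from 9.01 to 21.9 CPM. Spi1, the gene of PU.1, had a log2 fold change of 0.88 (SE 0.17, edgeR adjusted p = 0.000209), under the limit of 1. Cebpa and Myb had log2 fold changes of -0.17 and 0.23, and neither was called.

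All 8 secondary and tertiary granule genes were called higher in S226A liver, and so were 5 of 7 late neutrophil genes. The medians of the lists were 1.35 and 1.25, against 1.50 for the 5 primary granule genes. Ltf, which encodes lactoferrin, rose from 793 to 2121 CPM (log2 fold change 1.42), and S100a9, a subunit of calprotectin, from 1029 to 2825 CPM (log2 fold change 1.46). Lcn2, Ngp and Cd177 rose by 1.49, 1.28 and 1.33 on the log2 scale, and S100a8, the other subunit of calprotectin, and Csf3r, the receptor of G-CSF, by 1.25 and 1.34. Of 6 progenitor and proliferation genes, Fcnb, the ficolin of immature granulocytes, rose by 1.65 (SE 0.17), while Mki67 and Top2a, made by dividing cells of every kind, had log2 fold changes of -0.18 and 0.01. Cd34, a marker of progenitors, was at 14.9 CPM in wild-type and 20.1 CPM in S226A livers and was not called. In Y130A liver 0 of the 50 tested genes of these 6 lists were called by edgeR, with 1 at an unadjusted p below 0.05 and 0 called by DESeq2, and the list medians lay between 0.01 and 0.27. Within litters the Y130A liver was the higher of its pair in 4 of 4 litters for the summed CPM of the late neutrophil genes (2516 and 1802, 2293 and 2239, 2179 and 1671, 2078 and 1750 CPM), of the secondary and tertiary granule genes, of the other primary granule genes and of the inhibitors. For the 5 primary granule genes it was not, as Y130A replicate 2 had 587 CPM and its littermate 606.6 CPM. This order was noted after the values were seen and was not tested. The share of all genes with such an order was not counted.

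**Figure D4:**
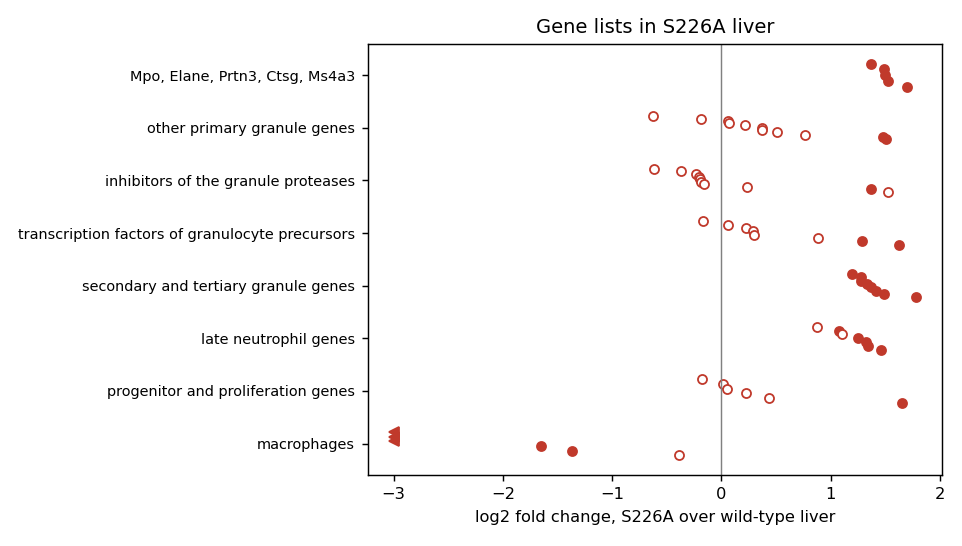
Log2 fold change in S226A over wild-type liver, 1 point per tested gene, for the 5 genes, the pathway lists and the macrophage markers. The other marker lists are not drawn. Filled points were called, and arrows at the left edge stand for 3 macrophage genes beyond -3. The 5 primary granule genes sit between 1.37 and 1.70, beside the 8 secondary and tertiary granule genes, while most inhibitors and transcription factors were not called.

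Markers of other cells moved in the same livers. Of 6 macrophage genes, 5 were called lower in S226A liver, with a summed level of 113 to 210 CPM against 440 to 573 CPM in wild type. Clec4f, a lectin of Kupffer cells, was at 130 CPM in wild-type and 0.345 CPM in S226A livers, Vsig4 was at 15.9 CPM and at 0 in all S226A livers, and Cd5l fell by 1.65 on the log2 scale. Of 6 monocyte genes, F13a1 and Ly6c2 were called higher, with log2 fold changes of 1.25 and 1.46, while Ly86 had -0.90 (edgeR adjusted p = 0.00137) and was not called. The list's median was 0.21, and the sum was 277 to 304 CPM against 133 to 157 CPM. Of 6 B lineage genes, Pax5 and Cd79b were called lower, with log2 fold changes of -1.05 and -1.09, while Ebf1 had -0.87 and was not called. The B lineage sums were 42.5 to 100.4 CPM in S226A and 116.9 to 142.6 CPM in wild-type livers. None of the eosinophil, mast cell and basophil, megakaryocyte, erythroid or hepatocyte markers was called by edgeR. Siglecf of eosinophils was the only one of them with an unadjusted p below 0.05 and the only one called by DESeq2, and the eosinophil markers summed to 10.9 to 17.0 CPM in S226A and 3.62 to 11.2 CPM in wild type. The hepatocyte markers summed to 148800 to 175700 CPM in S226A and 179100 to 183700 CPM in wild-type livers, groups that did not overlap. Lung epithelium and neuron markers, as types that liver should lack, were not called either. The lung epithelium markers summed to 36.6 to 42.1 CPM in S226A and 19.8 to 27.4 CPM in wild-type livers, groups that did not overlap, and most of this was Napsa, at 34.0 and 18.6 CPM (log2 fold change 0.87, SE 0.16, edgeR adjusted p = 0.00014). The neuron markers summed to 11.1 to 20.02 CPM in S226A and 15.8 to 23.1 CPM in wild-type livers. The part of these changes in the levels of the 5 genes was not tested.

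Over the 16 livers, the 10 genes whose log2(CPM + 1) followed the mean of the 5 most closely were Card9, Cotl1, Sorl1, Coro1a, Gsr, Fcnb, Ltf, Camp, F13a1 and Ckap4, with Pearson r of 0.968 to 0.983. The median r over 16550 genes was -0.10 and 41 genes were above 0.95. The 5 genes were correlated with one another at 0.949 to 0.988. These values are a description over libraries in which the difference between S226A livers and the others is the main source of spread: around the group means the same pairs of genes gave 0.272 (Prtn3 and Ms4a3) to 0.844 (Mpo and Prtn3), and the 10 genes 0.04 to 0.68. Mpo, Elane and Prtn3 stayed the closest trio at 0.789 to 0.844.

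Of 16 genes next to the 5 on their chromosomes that are in the table and are not members, 11 were tested and 1 was called in S226A liver, against 2.1% of all genes tested. The 11 include genes with too few reads for a call, such as Mcpt4 (SE 1.37). The gene called was Plppr3, which shares exonic bases with Prtn3. Plppr3 rose from 4.96 to 14.1 CPM in the livers (log2 fold change 1.51, SE 0.22, edgeR adjusted p = 2.60e-06), and reads in the shared bases count as one gene or the other only by strand. Lpo, the peroxidase gene 2014 bases from Mpo, had 0 reads in all 16 livers. Tspoap1 on the other side of Mpo was at 24.8 CPM in wild-type and 43.6 CPM in S226A livers (log2 fold change 0.82, SE 0.13, edgeR adjusted p = 1.09e-05), under the limit of 1. The mast cell protease gene Mcpt8 beside Ctsg stood at 1.17 CPM in wild-type and 1.98 CPM in S226A livers. On the other side of Elane, Med16 had a log2 fold change of 0.13.

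Of the 3 organs, the liver had by far the highest levels of these genes. In wild-type embryos of the S226A litters, all 5 were called higher in liver than in lung, where 17.3% of all genes were, and again all 5 in the Y130A litters, where 18% were. Elane, Ctsg and Ms4a3 passed the filter on low counts only through liver. Their calls were thus all but fixed, and the count of 5 adds no support for them. Mpo and Prtn3 passed the filter within lung as well. Mpo was at 349 ± 20.4 CPM in liver, 0.539 ± 0.324 in lung and 0.185 ± 0.159 in brain of the S226A litters (SD, n = 4), and the ratio of liver to lung over the pooled reads was 635 with a 95% counting interval of 475 to 871. In the Y130A litters the ratio was 462 (384 to 561). Over brain the ratio was 1804 and 1298 for Mpo in the S226A and Y130A litters but 37.3 and 31.0 for Prtn3. By library size alone the Mpo levels were 275 CPM in liver and 0.627 CPM in lung, so that the scaling moved the levels but not their order. DESeq2 fitted to all libraries called 3 of the 5 in each set.

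Few reads lay behind the lung and brain values. The 4 wild-type lungs of the S226A litters held 45 reads of Mpo, 10 of Elane, 45 of Prtn3, 9 of Ctsg and 1 of Ms4a3 in all. In the Y130A litters, the 3 lungs of wild-type embryos held 112, 17, 82, 21 and 0. With a floor of 3 reads over the group for the count of 0, Ms4a3 was at least 919-fold higher in liver than in lung there, and by the counting interval used for the other ratios the lower limit was 747. In the S226A litters, where 1 read was found, the ratio was 1393 with a counting interval of 249 to 55060. Intervals cover counting error only. The lungs also held hepatocyte transcripts, with summed markers at 22.8 to 478 CPM in wild-type lungs of the S226A litters and 69.0 to 1320 CPM in Y130A lungs. Whether liver RNA has a part in the lung values was not tested.

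Of the 5 genes, 1 was called between lung and brain. Prtn3 was called lower in lung than in brain in both sets (log2 fold changes -1.78 and -2.18, SEs 0.31 and 0.26, edgeR adjusted p = 2.26e-06 and 9.86e-10), against 44.7% and 44.6% of all genes called in either direction. Prtn3 stood at 1.22 to 2.98 CPM in the 8 wild-type brains and at 0.342 to 0.985 CPM in the 7 wild-type lungs, and the groups did not overlap. Mpo, by contrast, was at 0 to 0.573 CPM in the brains and at 0.164 to 1.51 CPM in the lungs. Its log2 fold change of lung over brain was 1.49 in the S226A litters (SE 0.91, edgeR adjusted p = 0.133). In the Y130A litters it was 1.48 (SE 0.60, edgeR adjusted p = 0.0233), and neither was called. Elane, Ctsg and Ms4a3 had too few reads in both organs for a call. Plppr3, the gene that overlaps Prtn3, was at 256 ± 15.2 CPM in brain, 2.39 ± 0.317 in lung and 4.96 ± 1.94 in liver of the wild-type S226A litters (SD, n = 4), and its part in the Prtn3 values was not tested. With litter as a block, 2 genes were called in the Y130A litters.

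In lung no gene of the 5 was called in S226A embryos, against 0.302% of all genes tested, nor in Y130A embryos, against 0%. At such shares, 0 calls among 5 genes says nothing of these genes in particular. Elane, Ctsg and Ms4a3 were tested in lung only through their liver reads and could hardly be called. Mpo was at 0.375, 0.764, 0.851 and 0.164 CPM in wild-type and at 0, 1.68, 1.21 and 0.331 CPM in S226A lungs, which is 45 and 70 reads. The groups overlapped, and in both genotypes replicates 2 and 3 were the 2 highest. The log2 fold changes in S226A lung were 0.49 for Mpo (95% interval -0.92 to 1.90), 0.83 for Elane (-1.39 to 3.06), 0.42 for Prtn3 (-0.33 to 1.17), 0.66 for Ctsg (-1.35 to 2.67) and -0.12 for Ms4a3 (-3.96 to 3.72). Leaving out 1 library gave -0.17 to 0.93 for Mpo, -1.04 to 2.05 for Elane and -0.01 to 0.88 for Prtn3. For Ctsg it gave -0.13 to 1.36 and for Ms4a3 -2.07 to 1.94. The lowest values were those without S226A lung replicate 2 for Mpo, Elane and Ctsg and without S226A lung replicate 3 for Prtn3 and Ms4a3. The intervals of Mpo, Elane and Ctsg hold both 0 and the value found in liver, and the interval of Prtn3 holds 0 and ends below the value of liver. In Y130A lung, the litter of replicate 1 gave the most Mpo reads in both genotypes, 71 in the wild-type and 103 in the Y130A lung, at 1.51 and 1.72 CPM. Ms4a3 had 9 reads in that Y130A lung and 0 in the other 6 lungs of the set, and was the only one of the 5 with an unadjusted p below 0.05 in any comparison of mutant lung or brain (edgeR), with an adjusted p of 1. DESeq2 called none in lung.

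The S226A effect in liver was not shown to differ from that in lung. None of the 5 was called in that test, against 1.14% of all genes called higher, and the difference was 0.95 on the log2 scale for Prtn3 (SE 0.42, edgeR adjusted p = 0.172), which was the only one with an unadjusted p below 0.05. DESeq2 called none either, and no fit paired liver and lung by embryo. In S226A lung, 2 of 8 secondary and tertiary granule genes and 3 of 7 late neutrophil genes were called higher, among them S100a9, which rose from 20.5 to 73.5 CPM (log2 fold change 1.83, SE 0.24, edgeR adjusted p = 3.90e-06). Of the other lists, 1 of 8 transcription factors was called higher, and 1 of 6 monocyte genes and 1 of 6 B lineage genes were called lower. Between both mutants' effects no member was called in lung or brain, against 0.077% and 0.0474% of all genes, and neither an unadjusted p below 0.05 nor a DESeq2 call was found there. Mpo and Prtn3 alone had enough reads to pass the filter within these organs, and Elane, Ctsg and Ms4a3 were tested there through their liver reads, so that their counts could hardly give a call. The difference in lung was 0.10 for Mpo (95% interval -1.63 to 1.82) and 0.29 for Prtn3 (-0.68 to 1.26), and for Ms4a3 it was -3.82 (-8.84 to 1.19). The value of Ms4a3 rests mainly on 9 reads in 1 Y130A lung and ran from -5.78 to -0.12 when 1 library was left out.

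In brain no gene of the 5 was called in S226A embryos (0.124% of all genes tested were) or in Y130A embryos (0% were), none had an unadjusted p below 0.05 with edgeR and DESeq2 called none. Prtn3, the only one with at least 45 reads in each S226A brain, was at 1.75, 1.76, 2.55 and 2.19 CPM there and at 1.22, 2.29, 2.11 and 1.96 CPM in wild type. These groups overlapped, with a log2 fold change of 0.11 (95% interval -0.38 to 0.59). In Y130A brain Prtn3 was at 2.22, 1.83, 1.84 and 2.05 CPM against 2.90, 1.94, 2.98 and 2.50 CPM in the wild-type littermates, lower in 4 of 4 litters. The groups overlapped, and the log2 fold change was -0.38 (95% interval -0.78 to 0.03), or -0.37 with litter as a block (SE 0.14, edgeR adjusted p = 1). Elane, Ctsg and Ms4a3 had 0 to 12 reads in each brain and could hardly be called. Within brain, the filter on low counts was passed by Prtn3 alone in the S226A litters and by Mpo and Prtn3 in the Y130A litters.

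The ratio of the summed CPM of primary to later granule genes, which is not per length and is compared only between libraries, was far lower in lung than in liver and brain. It was not tested. For every 100 CPM of the 8 secondary and tertiary granule genes, the 5 genes gave 24.9 ± 3.37 CPM in wild-type and 26.6 ± 2.35 CPM in S226A livers (SD, n = 4), although both sums were far higher in S226A, at 5650 against 2136 CPM for the later genes and 1504 against 527 CPM for the 5. Y130A livers gave 22.1 ± 1.75 and their wild-type littermates 23.5 ± 3.08 (SD, n = 4). In lung the value was 1.79 ± 0.57 in wild-type and 1.61 ± 1.17 in S226A embryos (SD, n = 4). In the Y130A litters it was 2.62 ± 1.94 (SD, n = 3) in wild-type and 2.66 ± 1.47 (SD, n = 4) in Y130A lungs. The lungs thus held RNA of later granule genes, at 61.5 to 88.7 CPM in the wild-type S226A litters, and 0.657 to 1.60 CPM of the primary ones. In brain of the S226A litters the value was 20.6 ± 5.93 in wild-type and 18.6 ± 6.18 in S226A embryos (SD, n = 4). However, 84.4% of the 5 genes' CPM in these wild-type brains was Prtn3, against 13.5% in liver. Brains of the Y130A litters gave 23.4 ± 4.02 in wild-type and 17.8 ± 2.37 in Y130A embryos (SD, n = 4), a wider gap than that between wild-type liver and brain in either set.

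**Figure D5:**
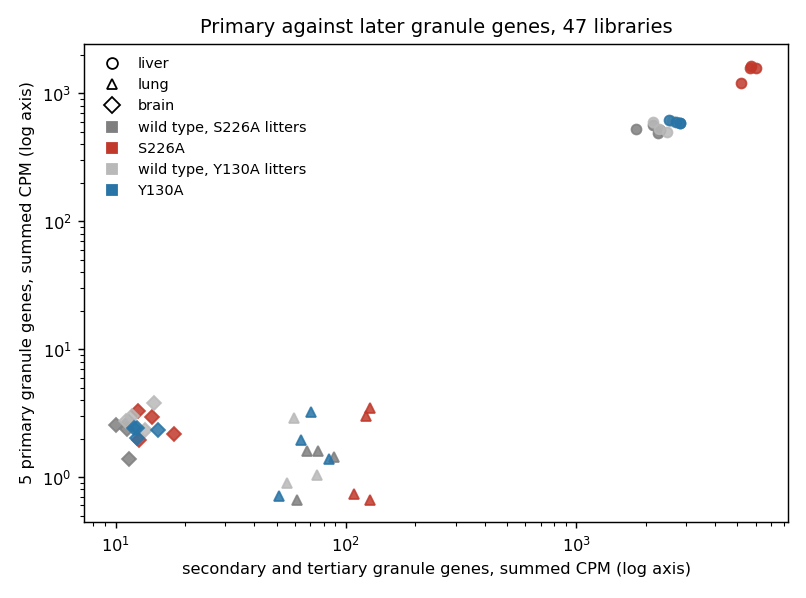
Summed CPM of the 5 primary granule genes against summed CPM of the 8 secondary and tertiary granule genes in the 47 libraries, both on log axes; shapes are tissues and colours are genotypes. S226A livers lie up and to the right of the other livers, on both sums, and the lungs, at 51.4 to 128 CPM of later genes, hold at most 3.50 CPM of the primary ones.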

How the data were processed

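The deposited values are read counts per gene, made by the authors with STAR 2.6.0b on GRCm38 after FastQC 0.11.5 and Trim Galore 0.6.5 and not normalized; per the labels, libraries followed standard Illumina protocols. Strand use in counting is not given in the sources used here. Gene symbols came from a table that matched 20424 of the 20456 identifiers, and positions from GENCODE M21. The 5 genes, the gene lists and the tests were chosen with earlier results of these data known.

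All 47 libraries were fitted with edgeR 4.0.16 (R 4.3.3), with 1 coefficient per group, TMM scaling and filterByExpr (at least 10 reads in enough libraries and 15 in all), and 16892 genes were tested. Calls were made at an adjusted p below 0.01, a log2 fold change beyond 1 and an SE below 1 (log2 fold change over the square root of F), the last not for differences between effects. With groups of 4, the p-values, SEs and intervals rest on a spread estimated over all 47 libraries, not only the groups compared. They thus do not measure the spread between embryos of those groups alone. For Mpo in S226A liver, the SE was 0.26 in this fit and 0.097 in a fit of the 16 livers alone. Liver, lung and brain of the same embryo were treated as independent. Promoter sequences are from RefSeq (GRCm38.p6), which had all 5 genes. Figures were drawn with matplotlib 3.10.9 in Python 3.11.15.

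Alternatives were DESeq2 1.42.0, RLE factors, library size alone, no filter, only the libraries compared, an adjusted p below 0.05 alone, no limit on the SE, litter as a block and leaving out each library. For each mutant's liver effect the 16 livers alone, and leaving out 2 livers and DESeq2 on the libraries compared were added after seeing the data. Titles give the litter of each embryo, and residuals of littermates correlated above 0.1 in 2 of 4 pairs in S226A liver, 4 of 4 in Y130A liver, 3 of 4 and 3 of 3 in the lungs and 2 of 4 and 4 of 4 in the brains. In the S226A set, 1 wild-type lung came from another embryo of its litter than the liver and brain. In 69 comparisons of replicates by chi-square, the smallest value for each degree of freedom was 4.09, so none was counted as a duplicate. The contrasts were tested on simulated data. Genes of the pathway lists were named if they were among the 2 with the highest level in wild-type liver or the 2 with the lowest p in S226A liver, and others after their values were seen; marker lists without a call are given by their sums or counts.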

Additional observations from a re-analysis of the deposited data

Results flagged for a closer look

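In liver, the S226A effect differed from the Y130A effect by 1.27 on the log2 scale for Prtn3 and by 1.70 for Ctsg, both called in the direct test of the difference by edgeR (adjusted p = 0.000625 and 0.00423), and S226A livers were higher in 4 of 4 litters for both.

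In 12 of 55 groups of 4 libraries, 1 library stood apart from the other 3 by the gap to its nearest neighbour, a measure that chance passes in about 1 group of 20. That rate does not apply to the 6 groups of Ms4a3 among them, where a single library held any read and the measure was passed by construction. Among livers these were Ctsg in S226A replicate 2 at 90.3 CPM (others 128.5 to 135.1), Prtn3 in wild-type replicate 2 of the S226A litters at 61.1 CPM (others 73.7 to 75.6) and Elane in Y130A replicate 4 at 69.5 CPM (others 63.9 to 64.1). The wild-type liver is 1 of the 2 with squamous transcripts. In lung and brain the libraries apart had 1 to 23 reads. Prtn3 was at 0.985 CPM in wild-type lung replicate 1 of the S226A litters, Elane at 0.384 CPM in Y130A lung replicate 1 and Mpo at 0.393 CPM in Y130A brain replicate 2. For Ms4a3 the other 3 libraries of the group were at 0, and the library apart was at 0.0501 CPM in wild-type and 0.0466 CPM in S226A lung, 0.0832 CPM in wild-type brain of the S226A litters, 0.150 CPM in Y130A lung, 0.0590 CPM in Y130A brain and 0.0172 CPM in wild-type brain of the Y130A litters.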

How the results depend on the processing

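The 5 genes remained called in S226A liver and 0 in Y130A liver under each alternative other than DESeq2 on all libraries, which called 2 in S226A liver and 3 in wild-type liver over lung in each set; the cause was not tested. In the direct test between both mutants in liver, 2 were called, and 4 at an adjusted p below 0.05 alone, 4 with litter as a replicate block, 5 with only the libraries compared (the 16 livers alone, 1 and the same fit) and 5 with DESeq2 on only the libraries compared; leaving out each library gave 1 to 3. In wild-type lung over brain of the Y130A litters, 1 was called, and 2 at an adjusted p below 0.05 alone and 2 with the replicate block; leaving out each library gave 1 to 2, with 2 without wild-type lung replicate 2 and without wild-type brain replicate 1. The block changed no other count of the 5. Leaving out each library changed no other count of the 5. Over all genes, counts moved by more than 1.5 times as follows. At an adjusted p below 0.05 alone they were 1972 against 355 in S226A liver, 46 against 13 in Y130A liver, 317 against 51 in S226A lung, 41 against 21 in S226A brain, 3 against 0 in Y130A lung, 1 against 0 in Y130A brain, 997, 52 and 14 against 249, 13 and 8 for the difference between mutants in liver, lung and brain, 1165 against 268 for S226A liver minus lung, and 12389 to 13290 against 6517 to 7559 between wild-type tissues. With DESeq2 they were 57 in Y130A liver, 80 in S226A lung, 32 in S226A brain, 8 in Y130A lung, 1 in Y130A brain, 454, 55 and 17 for the difference between mutants and 456 for liver minus lung. With only the libraries compared they were 2 in Y130A liver, 8 in S226A lung, 158 and 5 for the difference between mutants in liver and lung and 159 for liver minus lung; Y130A liver gave 3 in the 16 livers alone. With the block they were 34 in Y130A liver and 25 for the difference between mutants in lung, and with no filter 1 in Y130A brain. Leaving out wild-type lung replicate 2 of the S226A litters gave 81 in S226A lung, and leaving out wild-type replicate 2 or S226A replicate 4 gave 13 in S226A brain. Leaving out 1 brain moved the difference between mutants there by so much in 10 of 16 fits, to 3 to 5. Leaving out wild-type lung replicate 1 of the Y130A litters gave 1 in Y130A lung and 8 for the difference between mutants in lung. In lung and brain few reads of the 5 limit the precision: with only the libraries compared, Mpo and Prtn3 alone passed the filter on low counts in lung, and in S226A brain Prtn3 alone.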
